A study of Homo sapiens with 2 samples.

Results

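Keratins are the intermediate filament proteins of epithelial cells, and the 10 keratin genes KRT5, KRT7, KRT8, KRT10, KRT14, KRT15, KRT18, KRT19, KRT23 and KRT80 were examined here by their symbols among the 19607 genes of the expression table. RNA was sequenced as 1 library of CWR22rv1 cells, a human prostate cancer line that expresses the androgen receptor, with the genotype Akt1/2 knockout (Akt1/2 DKO), and 1 library with the genotype wild type (control). The knockout was made with CRISPR/Cas9 guides against both kinase genes and puromycin selection, and single-cell clones were isolated, but the labels do not say which clone was sequenced. With 1 library per group no difference has a replicate check, a clone cannot be told apart from the knockout, and no p-value is given.

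A keratin filament is built from pairs, each with 1 acidic type I chain and 1 basic type II chain, and a chain without a partner is usually degraded. KRT8 (type II) and KRT18 (type I) are the pair of simple epithelia and of the luminal cells of the prostate, often joined by KRT7 (type II) and KRT19 (type I). KRT5 (type II) with KRT14 or KRT15 (type I) marks the basal layer, and KRT10 (type I) belongs to the upper layers of skin. KRT80 is a type II keratin of many epithelia and KRT23 a type I keratin.

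The keratin make-up of the cells differed between the libraries. In the Akt1/2 DKO library KRT80 and KRT7, which held 1 and 2 reads in the control library, held 1350 and 615, the pair KRT8 and KRT18 was about 1.80-fold and 1.97-fold higher, and KRT19 was 13.1-fold lower. The basal keratins KRT5 and KRT14 had at most 2 reads in either library, and KRT15 had 13 in the control and 0 in the Akt1/2 DKO library. The label of luminal and basal keratins was thus met mainly on its luminal side. The members were selected on their symbols with their reads and fold changes in these libraries already known, so those values are a description.

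Each gene is given by its reads (the authors' estimated counts, rounded) and, where genes are compared with each other, by the authors' FPKM, in which fragments are divided by the length of the transcript and the size of the library. The libraries held 9970825 reads (control) and 10718654 reads (Akt1/2 DKO). Fold changes are ratios of reads scaled by edgeR's TMM factors, Akt1/2 DKO to control, with 95% Clopper-Pearson intervals that take the gene's total over both libraries as fixed. The intervals reflect counting error alone. For a gene with 0 reads in a library, 3 reads (0.306 CPM in the control, 0.276 CPM in the Akt1/2 DKO library) stood in for 0. Such folds are written as "at least" with regard to this floor, and the limit of the counting interval, which is lower, is given beside them. The knocked out genes were lower in the library labelled as their knockout, since AKT1 had 2645 reads in the control and 591 in the Akt1/2 DKO library and AKT2 had 2362 and 667.

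How far a keratin's reads are its own depends on how much of its sequence other genes hold. KRT18 and KRT19, the type I chains that made up nearly all type I RNA in the control library and differed in opposite directions, are shown over 65 coding bases near the end of the central rod domain, a conserved part of keratins, so that a reader can see how unlike they are. The bases lie in exon 6 of 7 of KRT18 (chr12:52952255-52952319, plus strand) and exon 6 of 6 of KRT19 (chr17:41523797-41523861, minus strand), on GRCh38 in GENCODE release 29. Capitals mark bases of KRT19 that differ from KRT18.
KRT18: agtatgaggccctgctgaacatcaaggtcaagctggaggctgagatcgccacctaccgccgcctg
KRT19: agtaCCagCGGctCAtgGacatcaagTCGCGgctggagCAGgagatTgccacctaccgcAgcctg
Of the 65 bases 18 differed and 47 were the same, and no window of 50 bases of the KRT19 transcript occurred in KRT18.

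Over whole transcripts, the members most exposed to read sharing were KRT8 and KRT18. Both have many processed pseudogenes, which are intronless copies of an mRNA elsewhere in the genome. For each member, the windows of 50 bases of its longest principal transcript were looked up letter for letter, on the same strand, in the transcripts of all other genes of GENCODE release 29. For KRT8, 32.7% of the windows also occurred in another gene, with 34 pseudogenes among the 37 genes, KRT8P3 holding most. For KRT18 the share was 31.8%, held by 43 pseudogenes, with KRT18P11 holding most (9.98%). The shares were 1.79% for KRT19 (KRT19P1), 0.997% for KRT7 (most with PRPH, another intermediate filament gene) and 0.42% for KRT80 (with KRT8). For KRT10 and KRT23 no window was shared, for KRT15 0.328% were (KRT13), for KRT5 3.99% (most with KRT6C) and for KRT14 23.8%. KRT16 held 11.2% of the KRT14 windows, the most of any gene, and 10 pseudogenes together held 17.1%. The largest shares held by pseudogenes were thus those of KRT8, KRT18 and KRT14, whose reads could include pseudogene reads or could have lost some. In the control library, where KRT8 held 6408 reads, KRT80 held 1. The sources used here do not say how reads with several matches were assigned. The estimated counts of all 10 members were whole, while 2173 genes had a non-whole one in either library. What this means for shared reads was not tested.

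KRT8 was the most abundant keratin in both libraries. It had 6408 reads and 339 FPKM in the control library and 12815 reads and 629 FPKM in the Akt1/2 DKO library. Its reads were thus 1.80-fold higher (95% interval 1.75 to 1.86). Its partner KRT18 had 2433 reads and 155 FPKM in the control and 5306 reads and 315 FPKM in the Akt1/2 DKO library, a difference of 1.97-fold (95% interval 1.87 to 2.06). Ordered by FPKM among all genes, KRT8 stood at place 199 in the control and 128 in the Akt1/2 DKO library, and KRT18 at 477 and 220. The ratio of KRT8 to KRT18 in FPKM was 2.18 in the control and 2.00 in the Akt1/2 DKO library, and the counting intervals of the fold changes did not overlap, KRT18 having the larger. As these intervals hold counting error alone, they do not show that KRT18 differed more than KRT8. Both folds lay between 1.5-fold and 2-fold with TMM scaling. KRT18 passed 2-fold with total count scaling or FPKM (log2 fold change 1.02) and with upper-quartile scaling (1.03).

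KRT19 was the keratin that was lower by the most among those with reads in both libraries. This small type I keratin, which lacks the tail domain of other keratins, had 1966 reads and 142 FPKM in the control library and 166 reads and 11.1 FPKM in the Akt1/2 DKO library. It was 13.1-fold lower (95% interval 11.2 to 15.5), and its place among all genes by FPKM went from 554 to 6639. In the control library KRT19 stood near KRT18, at 142 and 155 FPKM, while in the Akt1/2 DKO library KRT18 exceeded it by far.

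KRT80 and KRT7 were close to absent from the control library. KRT80 had 1 read and 0.03 FPKM there, against 1350 reads and 32.3 FPKM in the Akt1/2 DKO library. The ratio as counted was 1218, with a 95% interval from 218 to 48131 that reflects the single control read. KRT7 had 2 reads and 0.11 FPKM in the control and 615 reads and 36.0 FPKM in the Akt1/2 DKO library, a ratio as counted of 277 (95% interval 76.5 to 2295). On the FPKM scale KRT7 and KRT80 reached levels near each other in the Akt1/2 DKO library, above KRT19 and well below KRT18. The reads of KRT80 were more than those of KRT7 and its FPKM lower, as its transcript is longer.

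**Figure D1:**
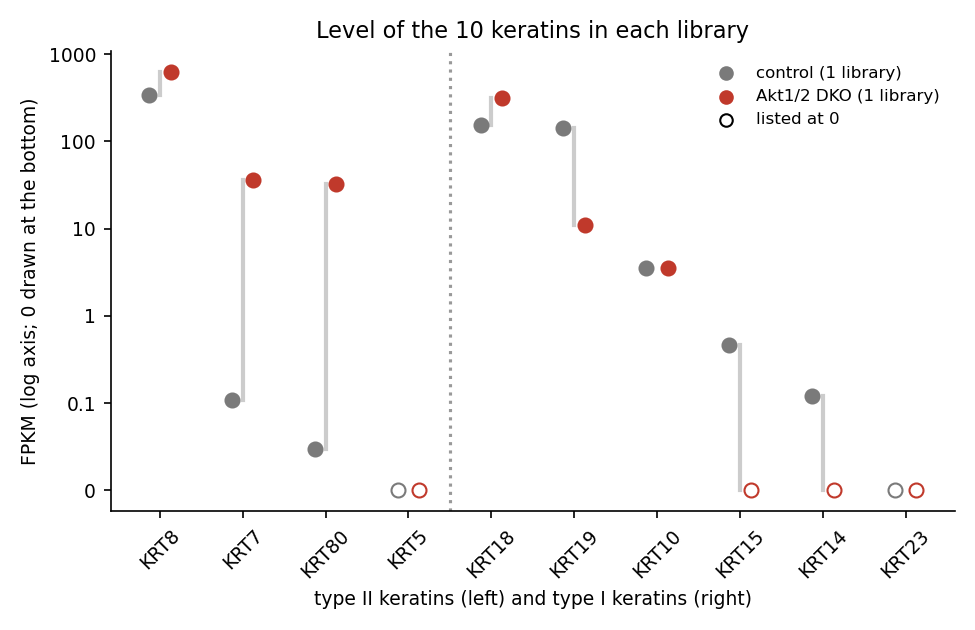
FPKM (log axis, 0 drawn at the bottom) of the 10 keratins in the control and the Akt1/2 DKO library, with type II keratins at the left and type I keratins at the right. KRT7 and KRT80 go from 0.11 and 0.03 to 36.0 and 32.3 FPKM, KRT19 goes from 142 to 11.1, and KRT5 and KRT23 are listed at 0 in both libraries.

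KRT10 gave no clear difference. It had 61 reads in the control and 47 in the Akt1/2 DKO library. The log2 fold change was -0.52, and its 95% interval of -1.11 to 0.05 includes 0, which leaves no difference detectable with so few reads. In FPKM the values were 3.55 and 3.51, a log2 fold change of -0.02. KRT10 overlaps TMEM99, which lies on the opposite strand and had 37 and 30 reads, over 3490 bases. The sources used here do not say whether counting used the strand, so reads of the overlap cannot be assigned with certainty.

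The basal keratins were at or near the limit of detection. KRT15 had 13 reads and 0.47 FPKM in the control and 0 reads in the Akt1/2 DKO library, at least 4.80-fold lower by the floor of 3 reads (3.38-fold by the 95% counting limit). KRT14 had 2 reads and 0 reads, and KRT5, its type II partner, had 0 in both libraries. KRT23 also had 0 reads in both. A count of 0 allows up to 3 reads, so KRT5 and KRT23 were not detected at this depth rather than shown to be absent, and the 2 control reads of KRT14 allow no comparison. TP63, the transcription factor that marks prostate basal cells, had 0 reads in both libraries as well.

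Of the 10 members, 7 had at least 10 reads in both libraries together, and 6 of these differed by at least 1.5-fold, the threshold the study applied. Over all 13318 genes with at least 10 reads, 30.9% differed by this much. KRT7, KRT8, KRT18 and KRT80 were higher in the Akt1/2 DKO library and KRT15 and KRT19 were lower, while over all genes 15.9% were higher and 15.0% lower. At 2-fold 4 members remained, KRT7, KRT15, KRT19 and KRT80, beside 17.9% of all genes. The choice of members rested on these same values, so nothing is read from their count.

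**Figure D2:**
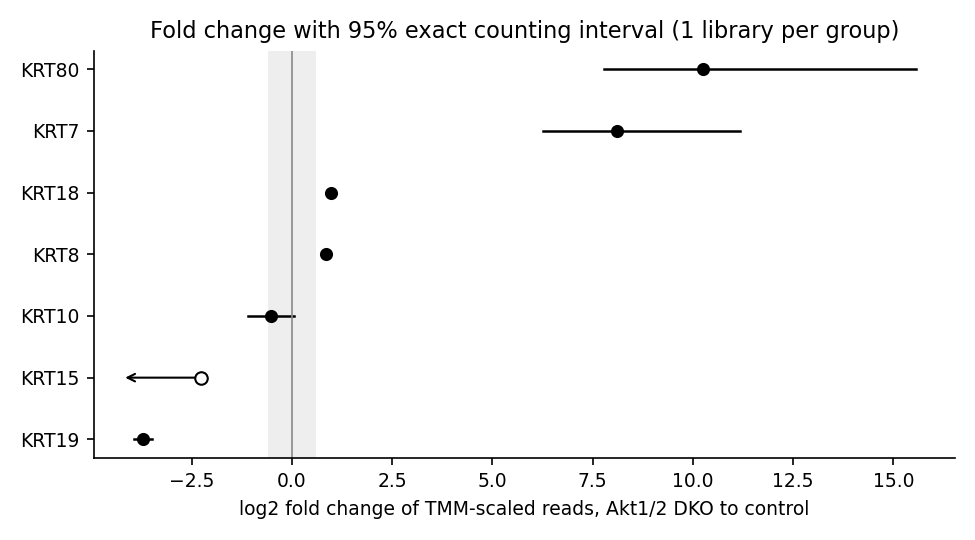
Log2 fold change of TMM-scaled reads, Akt1/2 DKO to control, for the 7 keratins with at least 10 reads. Points are values as counted, bars are 95% exact counting intervals, the open point with an arrow is a bound with 3 reads in place of 0, and the grey band holds changes under 1.5-fold. KRT8 and KRT18 lie just outside the band with short bars, and KRT7 and KRT80 lie far to the right with long bars because the control library holds 2 reads and 1 read.

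The balance between the keratin types shifted towards type II. Summed over the 28 type I keratins of the table, FPKM was 302 in the control and 330 in the Akt1/2 DKO library. Summed over the 26 type II keratins it was 339 and 699. The ratio of type I to type II was 0.891 in the control (95% counting interval 0.858 to 0.926) and 0.472 in the Akt1/2 DKO library (0.458 to 0.487). With reads per kilobase of the principal transcript it was 0.997 and 0.525, outside these intervals, and still lower in the Akt1/2 DKO library. The intervals thus leave out the choice of transcript length. All these values are levels of RNA, and protein was not measured in these libraries.

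Within type I, the higher KRT18 and the lower KRT19 nearly offset each other in the sum. KRT18 made up 51.5% of type I FPKM in the control and 95.6% in the Akt1/2 DKO library, and KRT19 made up 47.0% and 3.35%. KRT10 stayed near 1%, at 1.18% and 1.06%. Within type II, KRT8 was 99.9% of the FPKM in the control and 90.1% in the Akt1/2 DKO library, where KRT7 made up 5.15% and KRT80 4.63%. The ratio of KRT8 to KRT18 and KRT19 together was 1.14 in the control and 1.93 in the Akt1/2 DKO library. In all, keratins took 0.118% of summed FPKM in the control and 0.191% in the Akt1/2 DKO library.

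**Figure D3:**
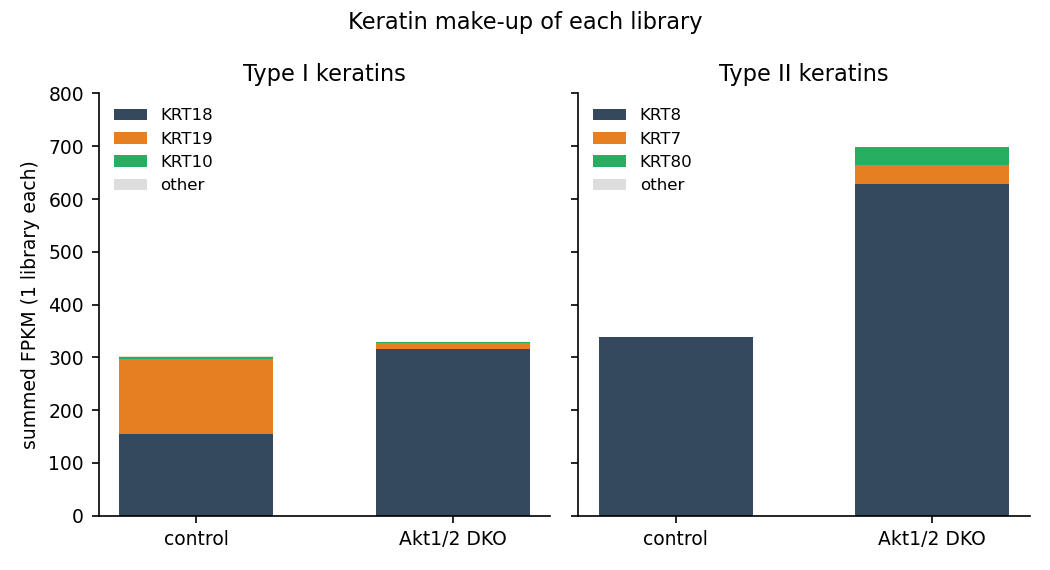
Summed FPKM of type I and of type II keratins in each library, stacked by gene. The type I bars have similar heights, 302 and 330 FPKM, with KRT19 a large part of the control bar only, and the type II bar is 339 FPKM in the control and 699 in the Akt1/2 DKO library, topped by KRT7 and KRT80.

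The other keratins were mostly silent. Of the 54 keratins in the table, 36 had 0 reads in both libraries, 10 had 1 to 9 reads and 8 had at least 10. Outside the 10 members the only keratin with at least 10 reads was the hair keratin KRT86, with 0 reads in the control and 10 in the other, at least 3.01-fold higher by the floor of 3 reads (2.02-fold by the 95% counting limit). KRT81, a second hair keratin, had 0 and 5 reads. The estimates were not whole (10.34 for KRT86 and 4.66 for KRT81) and summed to 15.00. In the reference 38.4% of the windows of KRT81 also occur in KRT86, so the split between them is uncertain. The KRT86 gene also overlaps KRT7 on the same strand, so its reads cannot be told apart from those of KRT7 with certainty.

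KRT80 and KRT7, KRT8 and KRT18, and KRT15 and KRT19 were each pairs of adjacent genes that differed in the same direction. Among keratins with at least 10 reads, all those on chromosome 12 were higher, and KRT10, KRT15 and KRT19 on chromosome 17 were lower. For KRT10 the interval includes 0. Neighbours in a cluster thus shared a direction whichever pairs were taken, and nothing is read from adjacency. The pairs come from members chosen with these values known. The pairs that were higher in the Akt1/2 DKO library lay at opposite ends of their cluster. The 26 type II keratins and KRT18 lie in 1 cluster on chromosome 12, and the other 27 type I keratins lie on chromosome 17. KRT80 (chr12:52168996-52192000, minus strand) is the first gene of the chromosome 12 cluster and KRT7 (chr12:52232520-52252186, plus strand) the next, 40519 bases away. KRT86 follows and overlaps the KRT7 gene by 2887 bases on the same strand, and KRT81 lies within KRT86 on the opposite strand. These 4 neighbours held 1, 2, 0 and 0 reads in the control and 1350, 615, 10 and 5 in the Akt1/2 DKO library. Beyond KRT83, with 0 and 1 reads, the next 20 genes of the cluster held at most 2 reads each, up to KRT8 (chr12:52897187-52949954, minus strand) and KRT18 (chr12:52948871-52952901, plus strand) at the far end. KRT8 and KRT18 are annotated with an overlap of 1084 bases on opposite strands.

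On chromosome 17, KRT15 (chr17:41513743-41522529) and KRT19 (chr17:41523617-41528308), both on the minus strand and 1087 bases apart, were both lower in the Akt1/2 DKO library. KRT10 (chr17:40818117-40822595) lies apart from them in the cluster. The other 25 keratins of chromosome 17, KRT15 and KRT14 among them, summed to 22 reads in the control and 0 in the Akt1/2 DKO library, at least 8.13-fold lower by the floor of 3 reads (6.07-fold by the 95% counting limit), and 6 of them had reads in the control. Of these 22 reads 13 were those of KRT15. The 23 keratins of chromosome 12 other than KRT7, KRT8, KRT18 and KRT80 summed to 2 and 20 reads. These sums were formed after the values were seen. Of the genes flanking the chromosome 12 cluster, NR4A1, before KRT80, had 59 and 571 reads (8.73-fold higher) and TNS2, past KRT18, had 254 and 98 (2.87-fold lower), while ATG101 and EIF4B, the nearest to either end, had 674 and 898 and 8530 and 10100. The median log2 fold change of genes with at least 50 reads was 0.04 on chromosome 12 and 0.02 on chromosome 17.

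**Figure D4:**
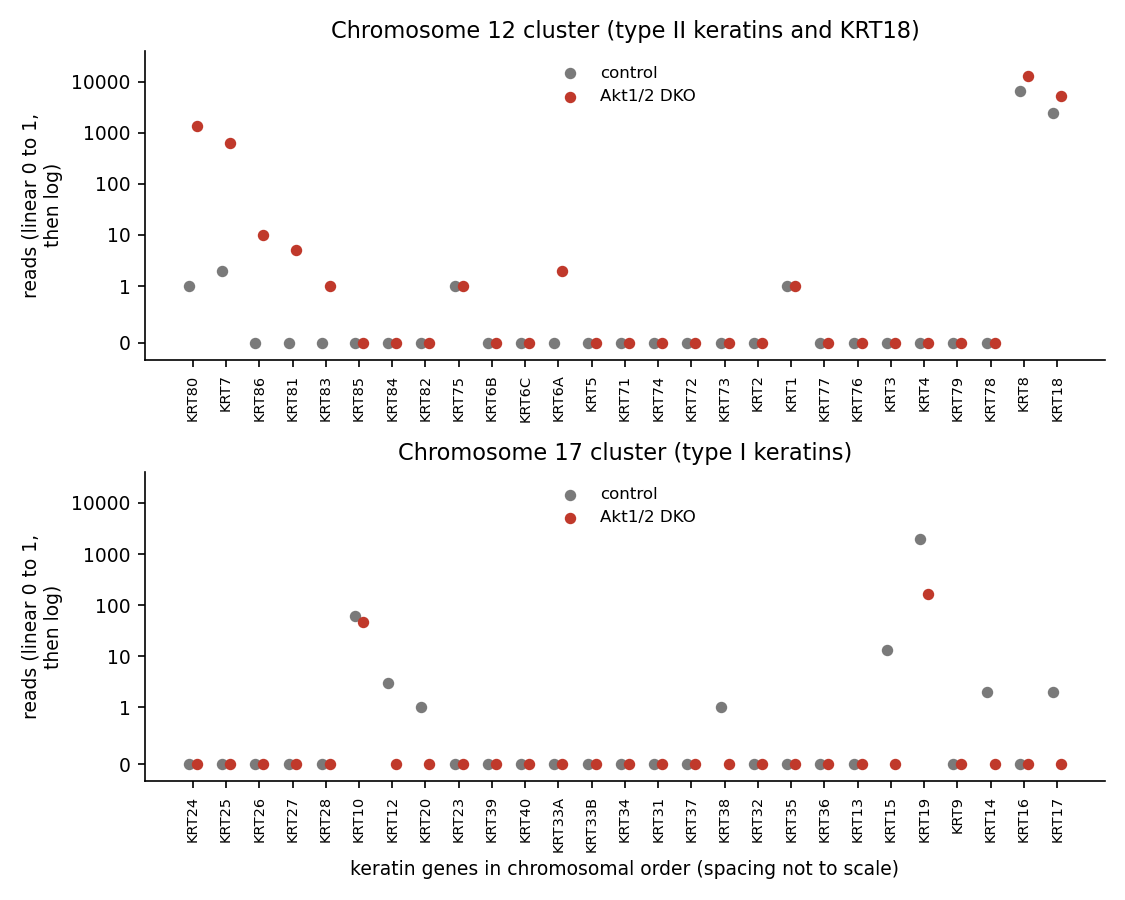
Reads per keratin gene in chromosomal order (spacing not to scale) in the control and the Akt1/2 DKO library, on an axis that is linear from 0 to 1 and logarithmic above. On chromosome 12 the reads gained in Akt1/2 DKO stand at the KRT80 end and KRT8 and KRT18 stand at the other end, and on chromosome 17 the reads of KRT15 and KRT19 stand side by side.

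Keratin filaments end at desmosomes, the junctions that join epithelial cells, and of 14 desmosome genes 9 had at least 10 reads. Of these, 3 were at least 1.5-fold higher in the Akt1/2 DKO library and 1 was lower, with a median log2 fold change of 0.04. Over all genes tested the median was 0.01, with 15.9% higher and 15.0% lower, and the counts of every list below stand beside these shares. The lists hold few genes, and nothing particular to any of them is read from the counts. PKP2, a plakophilin that links desmosomal cadherins to the plaque, had 13 and 295 reads, 20.5-fold higher (95% interval 11.8 to 38.9). The cadherin DSC2 had 44 and 143 reads, and PERP had 742 and 1612. DSP, the plakin that binds keratin filaments to the plaque, had 2125 and 1187 reads, 1.98-fold lower (95% interval 1.85 to 2.13). Of the list, 4 genes had 0 reads in both libraries.

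Among 11 hemidesmosome and cytolinker genes, which tie keratins to the basement membrane side and to other filaments, 10 had at least 10 reads, 4 were higher by 1.5-fold and 0 lower (median log2 fold change 0.33, beside 15.9% and 15.0% over all genes). DST had 149 and 803 reads and EPPK1 162 and 694, 4.86-fold and 3.86-fold higher, and in FPKM the log2 fold change of DST was 1.14 in place of 2.28. EVPL (468 and 691) and CD151 (2159 and 1911) did not reach 1.5-fold. Of 15 other intermediate filament genes, 9 had at least 10 reads, 3 were higher and 2 lower. VIM, the filament of mesenchymal cells, had 897 and 84 reads, 11.8-fold lower (95% interval 9.46 to 15.0), NEFH had 1442 and 91, PRPH had 27 and 551, and NES had 321 and 682.

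Markers of the cell types in which keratins are used did not move as blocks. Of 14 prostate luminal markers 12 had at least 10 reads, 2 were higher and 7 lower, beside 15.9% and 15.0% of all genes, with a median log2 fold change of -0.73. Among those lower, CD24 (21 and 15 reads) had a counting interval that includes no difference. KLK3, which encodes PSA, had 184 and 29 reads, TMPRSS2 219 and 53, CDH1 5349 and 3343, and the epithelial adhesion molecule EPCAM 206 and 843. KRT8 and KRT18 were thus higher in a library in which KLK3, TMPRSS2 and CDH1 were lower. Of 12 prostate basal markers 10 had at least 10 reads, 3 were higher and 5 lower. With FPKM 2 were higher and 5 lower. For CAV1 (6 and 12 reads), counted as higher, and LAMB3 (33 and 24), counted as lower, the counting intervals include no difference. CD44 had 21 and 542 reads, a log2 fold change of 4.54, or 3.63 with FPKM. SNAI2 had 494 and 0. Of 10 club and hillock markers 4 had at least 10 reads, 2 higher and 2 lower, with S100P at 1 and 519 reads and AQP3 at 698 and 121.

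Of 16 cornified envelope and squamous genes 4 had at least 10 reads and 4 were lower by 1.5-fold, beside 15.0% of all genes. SFN had 9187 and 2759 reads. For TGM1 (49 and 35) and CNFN (24 and 15) the counting intervals include no difference, and 3 of the list passed with FPKM. In a bulk library, fewer cells of a type and less RNA per cell cannot be told apart. Of 19 epithelial transcription factors 14 had at least 10 reads, 5 were higher and 1 lower (median log2 fold change 0.41), beside 15.9% and 15.0% of all genes. With FPKM 6 were higher and 2 lower. GATA3 had 346 reads in the control and 1 in the Akt1/2 DKO library, KLF4 had 141 and 763, OVOL1 had 70 and 285, and SOX9 had 135 and 262.

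The lists of fibroblast, endothelial, blood cell and urothelial markers had few reads in both libraries, whereas VIM, given above, had 897 in the control and 84 in the Akt1/2 DKO library. The 8 fibroblast markers summed to 142 reads in the control and 159 in the Akt1/2 DKO library, and of 3 with at least 10 reads 2 were higher, COL1A1 (55 and 106) among them, and 1 lower. The 9 endothelial and blood cell markers summed to 53 and 71 reads, nearly all of them CD68 (50 and 69), and the 5 markers of urothelium, an epithelium rich in KRT7, to 8 and 8. CDH5, a defining marker of endothelium, had 0 reads in both libraries, and DCN (fibroblasts) had 3 and 0.

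**Figure D5:**
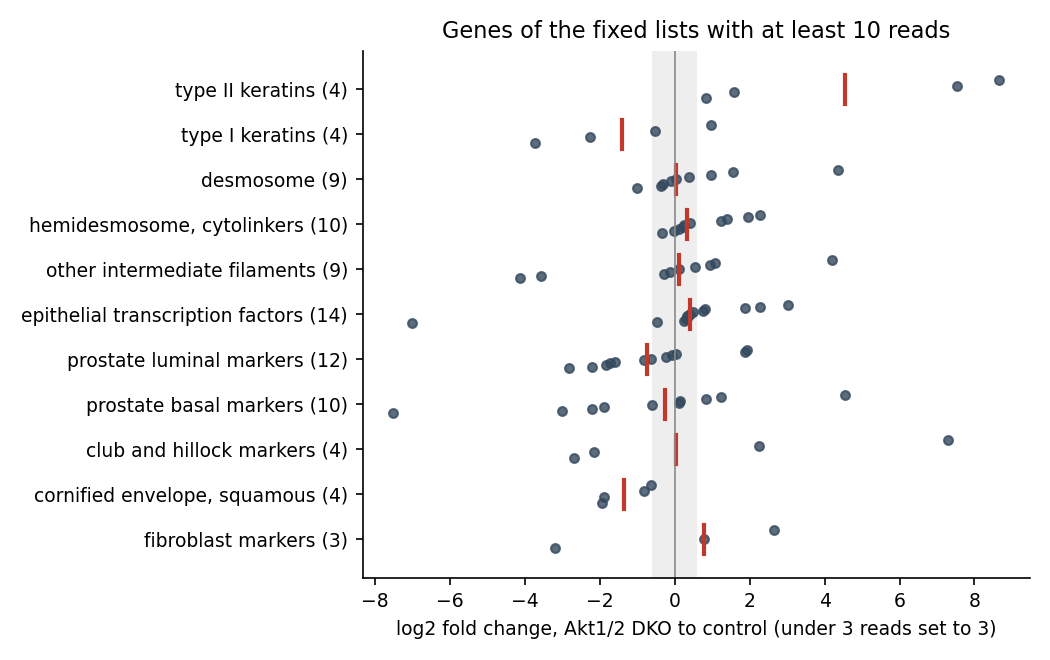
Log2 fold change, Akt1/2 DKO to control, of genes with at least 10 reads in each list (number in brackets), with reads under 3 set to 3. The short vertical bars are list medians, the thin line is the median of all genes (0.01) and the grey band holds changes under 1.5-fold. The 4 type II keratins lie to the right of the band, and the 4 cornified envelope genes lie to its left.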

How the data were processed

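RNA from 1 Akt1/2 DKO and 1 control library of CWR22rv1 cells was analysed. Per gene and library, the values deposited by the authors are estimated counts, not normalized, and FPKM. The submitters' processing notes list fastp 0.20.0, TopHat, Cufflinks, edgeR and the build GRCh38.p10, without their roles. The authors' own comparison columns (log2 fold changes, p-values and false discovery rates), their summary by ontology class and their correlation between libraries were not used.

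The estimated counts were rounded, and 13318 genes with a total of at least 10 reads over both libraries were kept. After TMM scaling (R 4.3.3, edgeR 4.0.16) the Akt1/2 DKO library was 1.11 times the size of the control library. Intervals came from scipy 1.17.1. For calls of 1.5-fold, fewer than 3 reads in a library were set to 3; where a library held 1 to 3 reads the printed ratio is as counted. The fold step was tested on simulated data. Positions and transcripts are from GENCODE release 29, in which 19571 identifiers were found.

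The members and the gene lists, written from general knowledge, were chosen with earlier results of these data known. Named are AKT1 and AKT2, the members, other keratins with at least 100 reads, up to 4 genes per list with the largest difference among those with at least 100 reads, 5 defining markers, and the gene sharing most windows with each member. KRT81, KRT83, KRT86, TMEM99, NR4A1, ATG101, EIF4B, TNS2, TGM1, CNFN, CD24, CAV1, LAMB3, CDH5 and DCN were named after their values were seen. The alternatives were other scalings (DESeq2 1.42.0 size factors among them), filters and thresholds, FPKM, a prior count and longer windows. Ratios as counted were added after seeing the data. A marker gene and a shared keratin sequence are not reported here.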

Additional observations from a re-analysis of the deposited data

How the results depend on the processing

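Directions of the 7 members with at least 10 reads were kept under every scaling, FPKM and prior count run, and FPKM gives no ratio for KRT15, listed at 0. The log2 fold change of KRT8 went from 0.85 to 0.90 with total count scaling, 0.90 with upper-quartile scaling and 0.89 with FPKM, just past its narrow counting interval. With at least 10 reads in each library the members past 1.5-fold fell from 6 to 3, since KRT7, KRT15 and KRT80 drop out. A 2-fold threshold left 2390 of all genes, 2 desmosome and 2 cornified envelope genes. With reads per kilobase the ratio of type I to type II was 0.997 in the control and 0.525 in the Akt1/2 DKO library. With windows of 75 and 100 bases the shared windows were 15.7% and 5.92% for KRT8, 5.85% and 0% for KRT18, 10.01% and 5.95% for KRT14, 2.44% and 1.44% for KRT5, and 0% for KRT7, KRT15, KRT19 and KRT80. The read length is not given in the sources used here. Of 155 values of other named genes 5 moved past their interval, all with FPKM. No paired analysis was possible because Akt1/2 DKO and control were sequenced as 1 library each.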
